A study of Mus musculus with 18 samples.

Results

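Replication-dependent histone genes are described here in lymphatic endothelial cells (LEC), which line lymphatic vessels, and blood vascular endothelial cells (BEC), which line blood vessels, of mouse embryos. The members are the genes whose array row carries 1 gene symbol and whose symbol is that of a clustered core or linker histone gene (H1c, H2ac, H2bc, H3c or H4c followed by a number, or the older Hist names). There are 22 of them among 19938 genes with such a row. They are 4 H2A genes (H2ac1, H2ac4, H2ac8 and H2ac15), 9 H2B genes (H2bc1, H2bc3, H2bc4, H2bc8, H2bc9, H2bc14, H2bc18, H2bc21 and H2bc22), 3 H3 genes (H3c4, H3c7 and H3c15) and 6 H4 genes (H4c3, H4c4, H4c6, H4c8, H4c9 and H4c14). No linker histone met the rule, because the mouse linker genes are named H1f. Each member had exactly 1 row. RNA was measured on 18 Affymetrix Mouse Gene 1.0 ST arrays in 6 groups of 3 arrays: LEC and BEC at embryonic days 14.5 (E14.5), 16.5 (E16.5) and 18.5 (E18.5). Per the labels the arrays are biological replicates of total RNA from embryonic tissue, and per the design text the 3 samples of each cell type and age come from separate litters, LEC and BEC being matched. No treatment is given. The sources used here give neither strain nor genotype, and the labels refer to another publication, not used here, for how the cells were obtained.

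Core histones package DNA: H2A pairs with H2B, H3 pairs with H4, and these pairs build the nucleosome. A dividing cell needs new histones while it copies its DNA, and the replication-dependent genes, which lie in clusters and mostly lack introns, supply them in S phase. Their messages are known for ending in a stem-loop bound by the protein Slbp in place of a poly(A) tail, and for being degraded when DNA synthesis stops. Some H2B genes, H2bc4 and H2bc21 among them, are also known to be made as polyadenylated RNA in cells that no longer divide. The labels name total RNA and the platform's standard labelling, and do not say how the RNA was primed. In bulk samples, fewer cells in S phase and less histone RNA per cell cannot be told apart.

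Upstream sequence is shown for the 3 H4 and the 3 H2B genes with the largest changes or differences described below, since their promoters carry different elements. Each run is the 150 bases before the annotated start, 5′ to 3′ on the gene's strand, from RefSeq (GRCm38.p6). Capitals mark matches on either strand to 4 motifs: the octamer ATTTGCAT (a known element of H2B promoters), the CCAAT box, the TATA box TATAAA, and GGTCCG, the core of a known H4 promoter element.
H4c6 (chr13:23551669-23551818, minus strand): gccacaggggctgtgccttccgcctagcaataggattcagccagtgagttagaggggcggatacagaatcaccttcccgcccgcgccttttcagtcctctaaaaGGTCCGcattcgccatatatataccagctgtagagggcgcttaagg
H4c4 (chr13:23581418-23581567, plus strand): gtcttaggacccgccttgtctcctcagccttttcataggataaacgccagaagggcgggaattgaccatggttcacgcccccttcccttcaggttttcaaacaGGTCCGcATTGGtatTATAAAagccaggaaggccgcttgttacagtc
H4c3 (chr13:23698459-23698608, minus strand): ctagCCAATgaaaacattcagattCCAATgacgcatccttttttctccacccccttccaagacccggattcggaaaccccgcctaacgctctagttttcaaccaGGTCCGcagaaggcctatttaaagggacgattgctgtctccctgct
H2bc14 (chr13:21721894-21722043, plus strand): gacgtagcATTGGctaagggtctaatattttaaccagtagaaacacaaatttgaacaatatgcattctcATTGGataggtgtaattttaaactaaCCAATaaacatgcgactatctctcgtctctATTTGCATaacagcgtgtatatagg
H2bc3 (chr13:23746584-23746733, plus strand): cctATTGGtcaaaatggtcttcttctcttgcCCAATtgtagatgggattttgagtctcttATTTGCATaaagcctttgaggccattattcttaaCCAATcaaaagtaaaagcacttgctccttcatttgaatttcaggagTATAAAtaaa
H2bc18 (chr3:96269550-96269699, plus strand): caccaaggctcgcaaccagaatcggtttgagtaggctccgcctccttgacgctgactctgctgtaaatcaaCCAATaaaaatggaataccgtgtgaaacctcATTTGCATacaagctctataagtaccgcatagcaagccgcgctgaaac

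In the H4 runs, GGTCCG begins 46 or 47 bases before the start. In the H2B runs the octamer begins 25 bases before the start in H2bc14, 90 bases in H2bc3 and 48 bases in H2bc18. Over windows of 300 bases (250 before the start and 50 after), 18 of the 22 members had a sequence in the RefSeq table. GGTCCG, searched on both strands, was found in 5 of 5 H4 windows and in 1 of 7 H2B windows (H2bc9), against 8.25% of all 32851 windows. The octamer was found in 5 of 7 H2B and 3 of 4 H2A windows, in 0 of 2 H3 and 0 of 5 H4 windows, and in 1.74% of all windows. CCAAT was present in 15 of 18 member windows (37.4% of all) and TATAAA in 12 of 18 (13.6% of all). The windows of the divergent neighbours H2ac8 and H2bc8, and of H2ac1 and H2bc1, overlap and so share matches. These are matches of letters and not measured binding. Of the members, 18 lie on chromosome 13 and 4 (H2bc18, H2bc21, H3c15 and H4c14) on chromosome 3.

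Across the arrays, the median value was 5.43 to 5.58, and the interquartile range was 3.18 to 3.36 on the E18.5 arrays against 3.40 to 3.64 at the earlier ages, so every change to E18.5 goes with a narrower spread of all values. Values are log2 expression, differences are log2 differences (1 is a 2-fold change) with the limma standard error (SE), and a gene was called at a limma p below 0.05 after Benjamini-Hochberg adjustment over all 19938 genes. A value under 4.66, the 95th percentile of 1194 olfactory and vomeronasal receptor genes, is called dim here. The labels held against markers: 7 of 7 lymphatic endothelial markers were higher in LEC over the 3 ages, and 8 of 8 blood endothelial markers were lower. Of 8 pan-endothelial markers, 6 were lower in LEC and 0 higher. The separation of the markers changed with age. The median LEC minus BEC difference of the lymphatic markers was 2.26 at E14.5 and 5.09 at E18.5. That of the blood endothelial markers was -3.19 and -2.98. From E14.5 to E18.5, 6 lymphatic markers fell and 0 rose in BEC, while 4 rose and 0 fell in LEC. Of the blood endothelial markers, 5 rose and 2 fell in LEC, and 3 rose and 1 fell in BEC.

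From E14.5 to E18.5 histone RNA fell in both cell types. In LEC, 16 of the 22 genes fell and 1 rose, and in BEC 15 fell and 1 rose. Of all genes tested, 40.9% were called in LEC (21.2% lower and 19.7% higher) and 30.6% in BEC (17.3% lower and 13.3% higher). The median member changed by -0.89 in LEC and -0.68 in BEC, where the median of all genes was 0.04 in each. All 6 H4 genes fell in both cell types (median -2.0 in LEC and -1.34 in BEC), while 0 of 3 H3 genes passed the test in either. When the arrays were shifted to a common median, 18 members fell in LEC and 16 in BEC, and after quantile normalization 18 and 14, with the same 1 gene rising. Under the common median, rises were 37.6% of all calls in LEC in place of 48.2%.

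**Figure D1:**
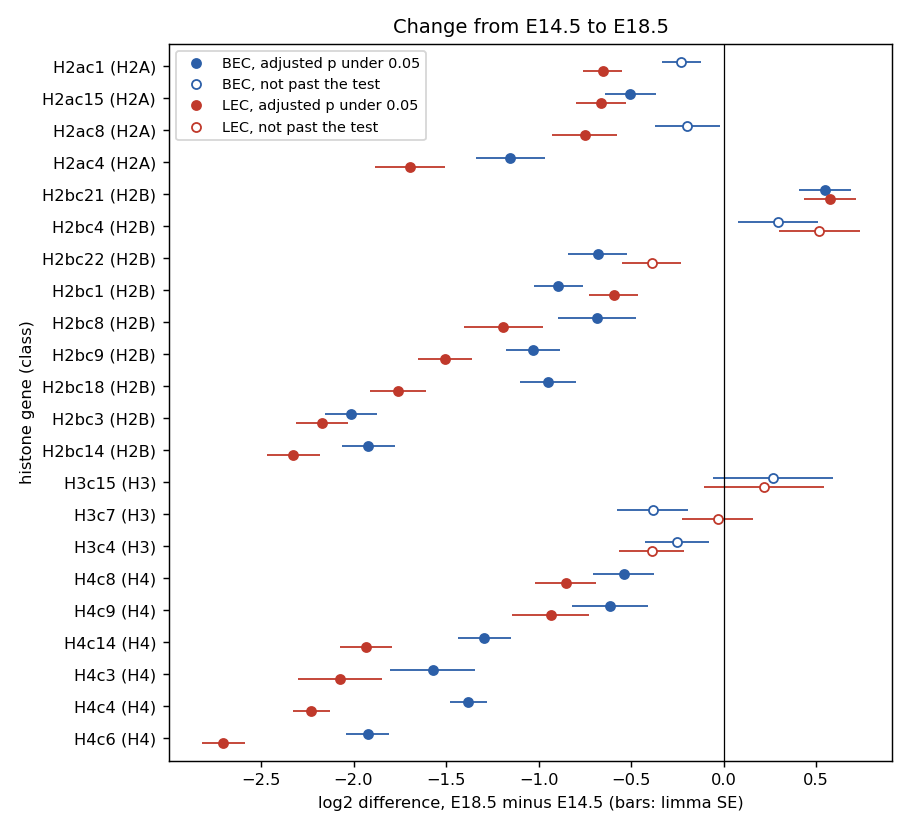
Log2 difference between E18.5 and E14.5 for each of the 22 histone genes, grouped by class, in BEC (blue) and LEC (red). Points are group differences, bars the limma SE, and filled points passed the test; all 6 H4 genes lie below 0 with filled points in both cell types, and H2bc21 is the gene with filled points above 0.

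H4 pairs with H3 in the core of the nucleosome. The largest change in LEC was that of H4c6. Its log2 values in LEC were 10.47, 10.56 and 10.61 at E14.5, 9.41, 9.12 and 9.35 at E16.5, then 7.86, 7.75 and 7.91 at E18.5. In BEC they were 10.83, 10.75 and 10.86, then 9.89, 10.21 and 10.12, and 8.66, 9.04 and 8.96. Within each cell type the 3 ages did not overlap, and at each age all LEC arrays lay below all BEC arrays. H4c6 fell by 2.70 ± 0.12 in LEC (6.52-fold lower; limma adjusted p = 1e-11) and fell by 1.92 ± 0.12 in BEC (adjusted p = 1.2e-09).

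H4c4 started from like levels in both cell types, at 11.17, 11.16 and 11.03 in LEC and 11.02, 11.29 and 11.15 in BEC at E14.5. At E16.5 it lay at 10.27, 10.08 and 10.11 in LEC and at 10.53, 10.49 and 10.52 in BEC. At E18.5 it lay at 8.95, 8.76 and 8.97 in LEC and at 9.68, 9.88 and 9.77 in BEC. The cell types overlapped at E14.5 and were apart at both later ages. It fell by 2.23 ± 0.10 in LEC (limma adjusted p = 2e-11). In BEC it fell by 1.38 ± 0.10 (9.9e-09). H4c14, the H4 member on chromosome 3, changed by -1.93 ± 0.14 in LEC and -1.29 ± 0.14 in BEC, both called.

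H4c3 had values of 7.90, 7.88 and 7.76 in LEC at E14.5, 6.78, 6.89 and 6.81 at E16.5, then 5.84, 5.64 and 5.84 at E18.5. In BEC it had 7.97, 8.16 and 8.01, then 7.14, 7.47 and 7.57, and then 5.70, 7.17 and 6.55. The BEC arrays of E18.5 are spread widely, with 1 of them at the LEC level and another as high as the lowest E16.5 array or higher. The LEC change was -2.07 ± 0.23 (adjusted p = 7e-07) and the BEC change -1.57 ± 0.23 (2.9e-05), both called. H4c9 had smaller differences of -0.94 ± 0.21 and -0.61 ± 0.21. Its call in BEC (adjusted p = 0.03) was lost without E14.5 BEC replicate 1 (-0.51, adjusted p = 0.12) or replicate 2 (-0.50, 0.13), without E18.5 BEC replicate 1 (-0.54, 0.1) or replicate 3 (-0.53, 0.1), with array weights (0.061) and with quantile normalization (0.056).

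H4c8 was near the dim bound. It lay at 4.82, 5.08 and 4.99 in LEC at E14.5, at 4.41, 4.41 and 3.98 at E16.5, then at 4.26, 4.08 and 3.99 at E18.5. In BEC it lay at 5.11, 5.60 and 5.60, then 4.99, 5.04 and 5.04, and then 4.81, 5.25 and 4.62. All LEC arrays of the later ages were dim, so the size of its change (-0.85 ± 0.16 in LEC and -0.54 ± 0.16 in BEC, both called) is uncertain. The BEC call (adjusted p = 0.016) was lost when the fit held only the compared groups (0.055), without E14.5 BEC replicate 2 (-0.46, 0.078) or 3 (-0.46, 0.082), and without E18.5 BEC replicate 1 (-0.50, 0.058) or 3 (-0.40, 0.092).

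H2B dimerises with H2A. Of its 9 genes, 6 fell and 1 rose in LEC, and 7 fell and 1 rose in BEC. H2bc14 had values of 10.46, 10.22 and 10.01 in LEC at E14.5, 9.63, 9.67 and 9.37 at E16.5, then 7.84, 8.02 and 7.86 at E18.5. In BEC it had 10.16, 10.42 and 10.28, then 9.998, 9.72 and 9.82, and then 8.51, 8.53 and 8.05. The ages did not overlap within either cell type, and the step after E16.5 was the larger of the 2. The LEC change was -2.33 ± 0.14 (adjusted p = 6.7e-10) and the BEC change -1.92 ± 0.14 (1.3e-08).

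H2bc3 had 9.08, 8.88 and 8.79 in LEC at E14.5, 8.25, 8.19 and 7.80 at E16.5, then 6.70, 6.66 and 6.88 at E18.5. In BEC its values were 8.93, 9.37 and 8.96, then 8.48, 8.67 and 8.54, and then 6.94, 7.25 and 7.03. The LEC change was -2.17 ± 0.14 (adjusted p = 1.2e-09) and the BEC change -2.01 ± 0.14 (5.7e-09), the most negative of the 22 in BEC.

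H2bc18 stood at 8.18, 8.10 and 7.98 in LEC at E14.5, at 7.81, 7.58 and 7.64 at E16.5, then at 6.56, 6.03 and 6.39 at E18.5. In BEC it stood at 7.79, 7.80 and 7.99, then 8.03, 7.93 and 8.04, and then 6.87, 7.28 and 6.58. In BEC the arrays of E14.5 and E16.5 overlapped, with a difference of 0.14 ± 0.15 that was not past the test, and all arrays of E18.5 lay below them. From E14.5 to E18.5 the LEC change was -1.76 ± 0.15 (adjusted p = 4e-08) and the BEC change -0.95 ± 0.15 (8.5e-05).

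H2bc9 (-1.5 ± 0.15 in LEC and -1.03 ± 0.15 in BEC), H2bc8 (-1.19 ± 0.21 and -0.69 ± 0.21) and H2bc1 (-0.59 ± 0.13 and -0.89 ± 0.13) also fell in both. H2bc1 is the H2B gene known for its use in testis, and 5 of its 18 arrays, all of E18.5, were dim. The H2bc8 call in BEC (adjusted p = 0.019) was lost with array weights (0.059), without E14.5 BEC replicate 1 (-0.61, 0.073) or 2 (-0.63, 0.066), and without E18.5 BEC replicate 1 (-0.65, 0.059) or 3 (-0.65, 0.055). H2bc22, dim on 11 of 18 arrays, differed by -0.39 ± 0.16 in LEC (not past the test, adjusted p = 0.057) and by -0.68 ± 0.16 in BEC (called). In LEC that call was made after either other scaling (adjusted p = 0.028 and 0.026), with a filter on dim genes (0.044), and without E14.5 LEC replicate 3 (0.0095) or E18.5 BEC replicate 1 (0.045).

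H2bc21 and H2bc4, named above among the H2B genes also made with poly(A) tails, went the other way or did not pass. H2bc21 had values of 5.33, 5.16 and 5.02 in LEC at E14.5, 5.62, 5.28 and 5.41 at E16.5, then 5.73, 5.65 and 5.85 at E18.5. In BEC its values were 4.85, 4.99 and 4.78, then 4.86, 5.47 and 4.99, and then 5.51, 5.41 and 5.33. All arrays of E18.5 lay above all of E14.5 within each cell type, and the whole range lay close above the dim bound. It rose by 0.58 ± 0.14 in LEC (1.49-fold; adjusted p = 0.0027) and by 0.55 ± 0.14 in BEC (1.46-fold; 0.0055).

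H2bc4 had 7.71, 7.46 and 7.51 in LEC at E14.5, 8.31, 8.66 and 8.08 at E16.5, then 8.78, 7.72 and 7.73 at E18.5. In BEC it had 7.17, 7.62 and 7.38, then 7.81, 8.12 and 7.93, and then 7.68, 7.79 and 7.58. It was highest at E16.5 in BEC, and at E18.5 in LEC 1 array stood far above the other 2. At 0.52 ± 0.22 in LEC (adjusted p = 0.066) and 0.29 ± 0.22 in BEC (0.35), its difference between E18.5 and E14.5 was not past the test. The LEC difference was called with a mean-variance trend (0.035) and without E18.5 LEC replicate 2 (0.70, 0.024) or 3 (0.69, 0.024), and without the high array, replicate 1, it was 0.17 (adjusted p = 0.44). The annotated gene models of H2bc21 (2667 bases), H2bc4 (8282) and H2bc22 (14079) are longer than those of the other members, which span 375 to 903 bases.

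**Figure D2:**
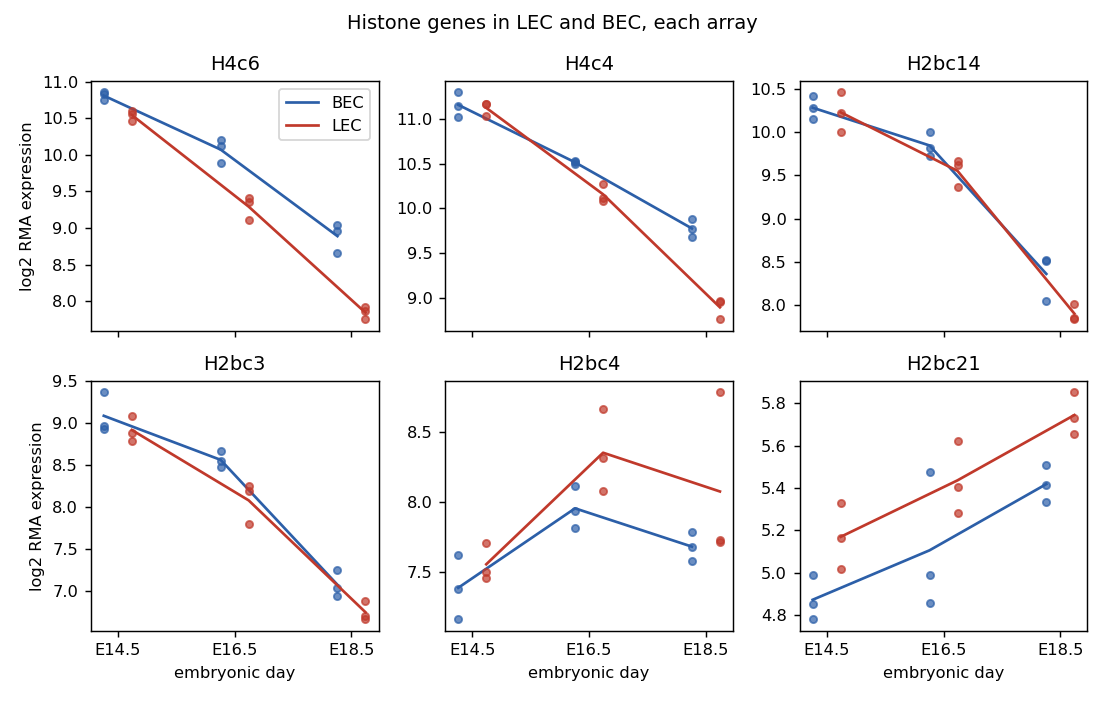
Log2 RMA values of H4c6, H4c4, H2bc14, H2bc3, H2bc4 and H2bc21 on each array (points) with group means (lines), BEC in blue and LEC in red, by embryonic day; each panel has its own axis. The values of H4c6, H4c4, H2bc14 and H2bc3 go down through the 3 ages in both cell types, those of H2bc21 go up, and those of H2bc4 are highest on average at E16.5.

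All 4 H2A genes fell in LEC (median -0.71) and 2 of 4 fell in BEC (median -0.37). H2ac15 lay at 10.34, 10.14 and 9.998 in LEC at E14.5, at 9.85, 9.81 and 9.50 at E16.5, then at 9.72, 9.42 and 9.35 at E18.5. In BEC it lay at 10.17, 10.24 and 10.15, then 9.80, 9.74 and 9.81, and then 9.66, 9.95 and 9.44. The E14.5 arrays were above all later arrays in both cell types, while the 2 later ages overlapped. The LEC change was -0.66 ± 0.14 (adjusted p = 0.00064) and the BEC change -0.50 ± 0.14 (0.0081), both called, the BEC call being lost without E18.5 BEC replicate 3 (-0.38, adjusted p = 0.052).

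H2ac4 fell more, with -1.70 ± 0.19 in LEC and -1.15 ± 0.19 in BEC. H2ac1, the H2A gene known for its use in testis, fell by 0.65 ± 0.10 in LEC (adjusted p = 5.3e-05). In BEC it differed by -0.23 ± 0.10 (adjusted p = 0.11), a difference called after a shift to a common median (0.047) or without E18.5 BEC replicate 1 (-0.34, 0.02). H2ac8 was dim on all 18 arrays, so the size of its difference of -0.75 ± 0.18 in LEC (called) is uncertain, and in BEC it was -0.20 ± 0.18 (not past the test).

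H3 could be read from its own rows only through H3c4, whose values lay close above the dim bound. H3c7 and H3c15 were dim on all 18 arrays. H3c4 had values of 5.81, 5.90 and 5.45 in LEC at E14.5, 5.03, 5.48 and 4.86 at E16.5, then 5.54, 5.45 and 4.99 at E18.5. In BEC it had 5.35, 5.80 and 5.55, then 5.10, 4.94 and 5.19, and then 5.17, 5.42 and 5.36. The ages overlapped except that the BEC arrays of E16.5 lay below those of E14.5. From E14.5 to E16.5 H3c4 was called lower in LEC (-0.59 ± 0.17, limma adjusted p = 0.028). In BEC the same step was -0.49 ± 0.17 (0.08, not past the test). That LEC call was lost after quantile normalization (0.056) and in some fits without 1 array. The BEC step was called with only the compared groups (0.04) or array weights (0.028). From E14.5 to E18.5 H3c4 differed by -0.39 ± 0.17 in LEC (adjusted p = 0.083) and -0.25 ± 0.17 in BEC (0.31). The LEC difference was called after a shift to a common median (0.041), after quantile normalization (0.045), and without E14.5 LEC replicate 3 (0.036) or E18.5 LEC replicate 1 (0.046).

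The fall was then divided at E16.5. From E14.5 to E16.5, 13 members fell and 1 (H2bc4, 0.79 ± 0.22, adjusted p = 0.019) rose in LEC, where 13.8% of all genes were called (5.72% lower and 8.07% higher). Without E14.5 LEC replicate 2, 9 fell and 0 rose, and the H2bc4 call was lost as well without E14.5 LEC replicate 3 (0.77, adjusted p = 0.068), E16.5 LEC replicate 1 (0.81, 0.051) or E16.5 LEC replicate 2 (0.64, 0.096). In BEC 4 fell (H4c14, H4c6, H4c4 and H2bc3) and 0 rose over the same step, against 9.76% of all genes called (4.66% lower and 5.1% higher). The median member lay at -0.57 in LEC and -0.36 in BEC. The BEC count rose to 7 lower with a filter on dim genes, 8 with only the compared groups, 8 with a mean-variance trend, 11 with array weights and 9 without the E18.5 arrays, with 1 higher (H2bc4) for the compared groups, the array weights and the fit without E18.5. H2bc3 was lost without E14.5 BEC replicate 2 (-0.39, adjusted p = 0.13) or E16.5 BEC replicate 1 (-0.48, 0.077) or 3 (-0.52, 0.06). With the arrays shifted to one median, rises made up 66.4% of all BEC calls in place of 52.2%, and 4 members were lower.

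From E16.5 to E18.5, 10 members fell in LEC (34.4% of all genes called, 18.5% lower and 15.9% higher) and 11 fell in BEC (32.3% called, 16.4% lower and 15.8% higher), and 0 rose in either. The median member lay at -0.37 in LEC and -0.46 in BEC. With one median for all arrays, the median of all genes in LEC was -0.07 in place of 0.05, and rises made up 26.6% of calls in place of 46.3%; in BEC they made up 30.5% in place of 49.1%. Under that shift 13 members fell in LEC and 11 in BEC. H4c6 fell at each step, with changes of -1.25 ± 0.12 and then -1.45 ± 0.12 in LEC and of -0.74 ± 0.12 and then -1.18 ± 0.12 in BEC. H2bc14 fell at each step in LEC (-0.68 ± 0.14, then -1.65 ± 0.14). In BEC its earlier difference of -0.44 ± 0.14 was not past the test (adjusted p = 0.06; called with a trend, 0.023, and after quantile normalization, 0.041, among others) and it then fell by 1.48 ± 0.14.

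LEC and BEC were compared over the 3 ages and at each. Over the ages, 10 members were lower and 1 higher in LEC, where 37.1% of all genes were called (19.0% lower and 18.2% higher), and the median member lay at -0.21 against -0.02 for all genes. H4 genes held the 5 most negative values: H4c6 (-0.70 ± 0.07, adjusted p = 5.7e-08), H4c8 (-0.67 ± 0.09, 9e-06; dim in LEC at the later ages, so its size is uncertain), H4c3 (-0.49 ± 0.13, 0.0057), H4c14 (-0.44 ± 0.08, 0.00021) and H4c4 (-0.42 ± 0.06, 6.4e-06). H4c9 was the exception in its class, at 0.06 ± 0.12. The other lower genes were H2bc3 (-0.33), H2bc14 (-0.27), H2bc18 (-0.23), H2ac8 (-0.34, dim) and H2ac1 (-0.22). H2bc21 was higher in LEC by 0.32 ± 0.08 (adjusted p = 0.0038). H2bc4 differed by 0.32 ± 0.13 (adjusted p = 0.055).

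The cell types were then compared at each age. At E14.5 limma called 0 members, with 3 at an unadjusted p under 0.05 (2 of them lower), where 16.5% of all genes were called (7.94% lower and 8.6% higher). H4c8 (-0.47 ± 0.16, adjusted p = 0.057) was called with the replicate block (0.041), with array weights (0.0074) and in some other fits. At E16.5 4 members were lower (H4c6, H4c8, H2bc3 and H4c4) and 0 higher (25.2% of all genes called, 12.2% lower and 13.0% higher). At E18.5 9 were lower and 0 higher (30.4% called, 15.9% lower and 14.6% higher). The median member went from -0.04 to -0.28 and -0.35. H4c6 lay at -0.27 ± 0.12, -0.78 ± 0.12 and -1.05 ± 0.12 at the 3 ages, and H4c4 at -0.03 ± 0.10, -0.36 ± 0.10 and -0.88 ± 0.10. Without the E18.5 arrays 6 members were lower and 1 higher over the earlier ages, and the calls of H2bc14 (-0.17, adjusted p = 0.17), H2bc18 (-0.05, 0.63), H2ac8 (-0.20, 0.18) and H2ac1 (-0.11, 0.12) were lost.

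At E18.5 the calls were H4c6, H4c4, H4c14 (-0.81 ± 0.14), H4c8 (-0.79 ± 0.16), H4c3 (-0.70 ± 0.23), H2ac8 (-0.63 ± 0.18), H2bc18 (-0.59 ± 0.15), H2bc14 (-0.46 ± 0.14) and H2ac1 (-0.45 ± 0.10). When the fit held only the E18.5 groups, 5 were called, H4c3 (adjusted p = 0.12), H2bc14 (0.082), H2ac1 (0.077) and H2bc18 (0.065) being those lost. The H4c3 value depended on which E18.5 arrays were kept. Without E18.5 BEC replicate 2 it was -0.35 (adjusted p = 0.17), and its call was lost as well without E18.5 BEC replicate 3 (-0.66, 0.067) or E18.5 LEC replicate 2 (-0.64, 0.082). That of H2bc14 was lost without E18.5 BEC replicate 1 (-0.38, 0.079) or 2 (-0.38, 0.088) or E18.5 LEC replicate 1 (-0.43, 0.055) or 3 (-0.44, 0.052), and with array weights (0.12). That of H2ac8 was lost without E18.5 BEC replicate 1 (-0.49, 0.057) or with array weights (0.092). At E16.5, H2bc3 was lost without E16.5 BEC replicate 2 (-0.43, 0.064) or E16.5 LEC replicate 3 (-0.34, 0.1), and H4c4 without E16.5 LEC replicate 2 (-0.32, 0.053). The call of H2bc18 over the 3 ages (adjusted p = 0.048) was lost with the replicate block (0.1), with a common median (0.059) and in most fits without a single array.

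**Figure D3:**
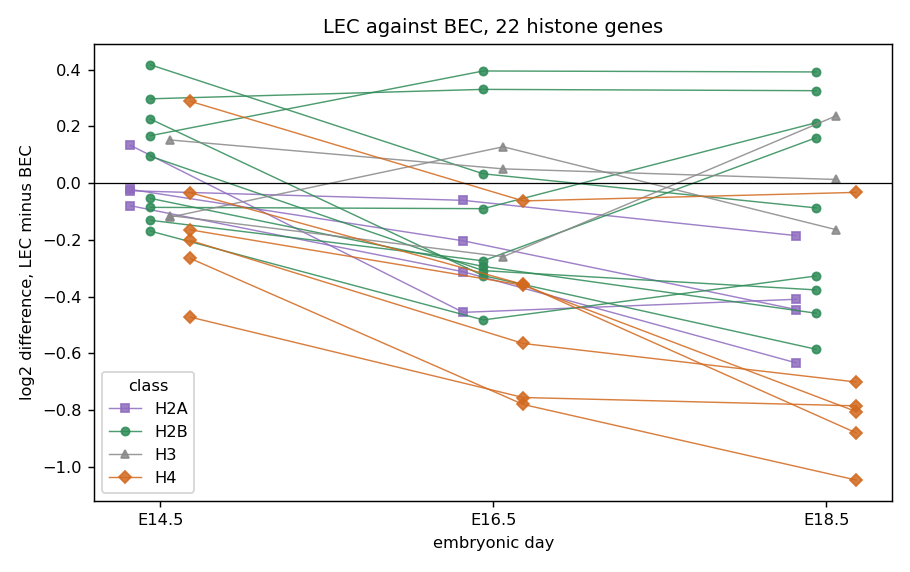
Log2 difference between LEC and BEC (LEC minus BEC) at each embryonic day for the 22 histone genes, coloured and shaped by class, with a line per gene; points above 0 are higher in LEC. At E14.5 the values lie between -0.47 and 0.42 around 0, and at E18.5 the H4 genes reach down to -1.05, and 6 genes, none of them called, lie above 0, between 0.01 (H3c4) and 0.39 (H2bc4).

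The change from E14.5 to E18.5 was larger in LEC than in BEC for 3 members by the test of the difference itself, where 8.85% of all genes were called (3.83% with a negative and 5.02% with a positive difference). They were H4c4 (-0.85 ± 0.14, adjusted p = 0.00059), H2bc18 (-0.81 ± 0.22, 0.022) and H4c6 (-0.78 ± 0.16, 0.0043). The median member lay at -0.36 against -0.01 for all genes. H4c4 and H4c6 were called under every alternative that was run. H2bc18 was not called with the replicate block (adjusted p = 0.068), with only the compared groups (0.055), or without E14.5 BEC replicate 1 (-0.78, 0.057) or 2 (-0.78, 0.053), E18.5 BEC replicate 2 (-0.63, 0.057), E14.5 LEC replicate 1 (-0.76, 0.061) or E18.5 LEC replicate 2 (-0.66, 0.058). H4c14 (-0.64 ± 0.20, adjusted p = 0.055) missed the threshold, and it was called under both other scalings (0.047 and 0.035), with a filter on dim genes (0.037), array weights (0.033) or a trend (0.017), and without E18.5 BEC replicate 1 (0.03) or E18.5 LEC replicate 1 (0.0058). Without E18.5 BEC replicate 1, 5 members were called, H4c3 among them (-0.89, adjusted p = 0.012; -0.50 ± 0.32 and 0.42 with all arrays). For H2bc3 (-0.16 ± 0.20) and H2bc21 (0.03 ± 0.20) the difference was not past the test.

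Histone genes of a class share most of their coding sequence, so a probe designed for 1 of them can bind the RNA of others, and a row's value need not belong to its named gene alone. The reference table holds 58 genes whose symbols match the rule. Of these, 22 have a row of their own, 35 are named only in rows that list several symbols, and 1 (H2ac14) is named in no row. Of the 22 members, 18 are also listed in such a shared row; the other 4 are H2ac1, H2bc18, H2bc21 and H4c14. The table has 26 shared rows, of which 2 held the same values on all 18 arrays as another, leaving 24.

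The shared rows were fitted with all other genes added to them. In LEC 23 of 24 fell from E14.5 to E18.5 (differences of -2.0 to -0.82 over all 24) and in BEC 22 of 24 (-1.30 to -0.25). The H3 class, read from its own rows only through H3c4, has 10 such rows, each naming 12 H3 genes. All 10 fell in both, with differences of -1.75 to -1.58 in LEC and -1.30 to -1.23 in BEC. Group means over these H3 rows ran from 12.18 to 12.75 at E14.5 to 10.43 to 11.13 at E18.5 in LEC, and from 12.27 to 12.89 to 11.04 to 11.63 in BEC. The own row of H3c4 differed less, at -0.39 in LEC and -0.25 in BEC, neither past the test. Of the 5 H4 rows, 4 fell in each cell type, and so did both rows that name H2A genes together with H3c4.

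For LEC against BEC the shared rows gave 0 calls at E14.5, 4 lower at E16.5 (all of H4) and 23 of 24 lower at E18.5. The difference of the age changes was called lower for 4 of 5 H4 rows (-0.77 for the most negative), for the row shared by H2bc6 and the linker gene H1f4 (-0.61, adjusted p = 0.034), for 0 of the other 6 H2B rows and for 0 of 10 H3 rows. Rows that name the same genes are repeated views of 1 pool of RNA and not separate evidence.

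**Figure D4:**
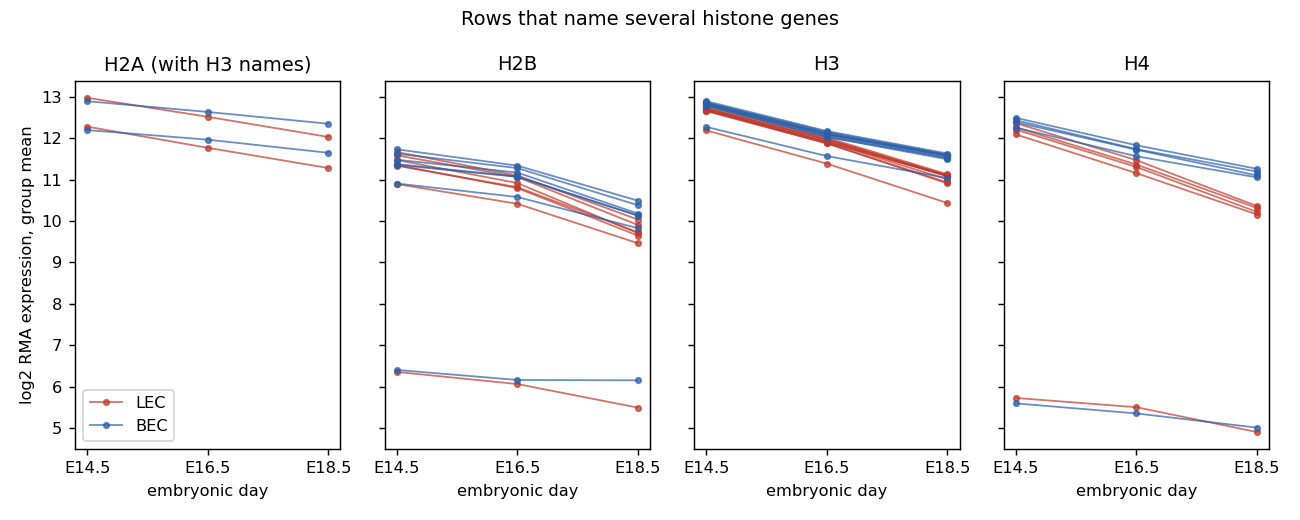
Group means of log2 RMA values for the 24 distinct rows that name several histone genes, by class and embryonic day, LEC in red and BEC in blue. At E18.5 the H3 rows lie between 10.43 and 11.13 in LEC and between 11.04 and 11.63 in BEC, below their values at E14.5.

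Linker histones bind DNA between nucleosomes, and 5 of them had a row of their own. H1f1 and H1f5 fell, with changes of -2.16 ± 0.13 in LEC and -1.45 ± 0.13 in BEC for H1f1 and of -1.43 ± 0.11 and -0.69 ± 0.11 for H1f5. The other 3, of which H1f2 and H1f3 are like H1f1 and H1f5 known to be made in S phase, did not pass the test in either (H1f2 at -0.25 ± 0.17 in LEC and 0.24 ± 0.17 in BEC). The difference of the age changes was called for H1f5 (-0.75 ± 0.15, adjusted p = 0.0029) and H1f1 (-0.71 ± 0.18, 0.019), the latter lost with the replicate block (0.054) and without E14.5 BEC replicate 1 (0.052), E18.5 BEC replicate 2 (0.055) or E14.5 LEC replicate 1 (0.064). Over the 3 ages 3 linker genes were lower and 1 (H1f2, 0.41 ± 0.10) higher in LEC; without the E18.5 arrays 0 were lower and 1 higher. Of 9 histone variants outside the rule, 7 fell in each cell type (median -0.89 in LEC and -0.63 in BEC). H2ax, a variant marked at DNA breaks, had changes of -1.86 ± 0.16 in LEC and -0.73 ± 0.16 in BEC, both called, and the test of their difference gave -1.14 ± 0.23 (0.0028). H2ax is also named in both shared rows of H2A genes, so the value of its own row need not belong to it alone.

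The ends of histone messages are formed with Slbp, the U7 particle and cleavage factors. Of 14 genes of this machinery, 10 fell and 0 rose in LEC (median -0.47), and 9 fell and 1 rose in BEC (median -0.42). Without E18.5 BEC replicate 1, 6 fell and 0 rose in BEC. Slbp fell by 0.98 ± 0.13 in LEC (adjusted p = 8.4e-06) and fell by 0.56 ± 0.13 in BEC (0.003). The cap-binding gene Ncbp2 changed by -1.13 ± 0.12 in LEC and -0.95 ± 0.12 in BEC, both called. The 1 gene that rose in BEC was Zfp473 (0.31 ± 0.11, limma adjusted p = 0.045), a call lost without any 1 of the 6 BEC arrays of E14.5 and E18.5. That call was lost as well after a shift to a common median (0.1) or quantile normalization (0.12). The same held with only the compared groups (0.057), with a trend (0.092) and in some fits without another array. Npat, the activator of histone gene transcription, differed by 0.17 ± 0.13 in LEC and 0.01 ± 0.13 in BEC, neither past the test (adjusted p = 0.32 and 0.97).

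Chaperones carry new histones to DNA. Of 15, 10 fell and 1 rose in LEC (median -0.50) and 8 fell and 0 rose in BEC (median -0.36). Mcm2, a helicase subunit that binds histones, changed by -1.44 ± 0.10 in LEC and -1.05 ± 0.10 in BEC, both called. Ubn1, of the replication-independent deposition complex, rose by 0.50 ± 0.10 in LEC. The age changes differed between the cell types for 3 chaperones, most for Asf1b, an H3 and H4 chaperone (-0.66 ± 0.14, adjusted p = 0.0041); that count was 5 with quantile normalization or a trend and 1 without E18.5 BEC replicate 2 or E14.5 LEC replicate 1.

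Genes of DNA replication fell for 21 of 24 in LEC (median -0.90) and 18 of 24 in BEC (median -0.54), with 0 rises in either. The polymerase subunit Pold1 changed most in LEC (-1.56 ± 0.11) and the replication gene Gins1 in BEC (-1.28 ± 0.12). Pcna, the polymerase clamp, differed by 0.20 ± 0.11 in LEC and 0.01 ± 0.11 in BEC and did not pass in the fit reported here; the LEC value was called after quantile normalization (0.30, adjusted p = 0.035). Genes of G2 and mitosis fell for 17 of 19 in LEC (median -0.76) and 11 of 19 in BEC (median -0.38), with 0 rises. The difference of the age changes was called negative for 7 of 24 genes of DNA replication and 7 of 19 of G2 and mitosis, positive for 0. The latter count was 4 with the replicate block and 3 with only the compared groups. At E18.5, 11 genes of DNA replication were lower and 1 higher in LEC. Of G2 and mitosis, 10 were lower and 0 higher. Cdk1 fell by 1.47 ± 0.10 in LEC. Mki67, a marker of dividing cells, fell in LEC by 0.30 ± 0.09 (adjusted p = 0.0086; 0.057 with only the compared groups) and differed by 0.19 ± 0.09 in BEC (adjusted p = 0.12; called with a trend, 0.048). Of 7 cell cycle inhibitors, 3 rose and 1 fell in LEC and 5 rose and 0 fell in BEC, Rb1 by 1.37 ± 0.14 and 0.99 ± 0.14. The BEC count was 3 after a shift to a common median, with only the compared groups or without E14.5 BEC replicate 2, and 2 without E18.5 BEC replicate 3.

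Markers of other cell types moved with age in the same arrays. Of 11 macrophage markers 10 rose and 1 fell in LEC, and 2 rose and 2 fell in BEC. Their summed level (log2 of the sum of unlogged values) went from 10.87 to 10.96 at E14.5 to 12.65 to 13.30 at E18.5 in LEC, against 8.77 to 9.43 over all BEC arrays. Of 8 mural cell markers all 8 rose in BEC, and 3 rose and 1 fell in LEC, the summed level going from 8.76 to 8.93 to 11.54 to 11.93 in BEC and from 8.77 to 8.97 to 8.81 to 9.33 in LEC. Of 8 keratinocyte and epithelial markers 6 rose in LEC (8.69 to 8.89 at E14.5, 10.64 to 11.35 at E18.5) and 5 in BEC (8.20 to 8.48, then 9.18 to 9.75), and 0 fell.

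Of 8 mast cell markers 3 rose and 0 fell in LEC (summed level 13.53 to 14.05, then 14.21 to 14.57), and 1 rose and 5 fell in BEC (11.42 to 12.31, then 10.19 to 12.07). Of 7 erythroid markers 0 rose and 2 fell in each cell type, the summed level going from 9.40 to 9.73 to 7.39 to 7.50 in LEC and from 10.19 to 10.80 to 8.17 to 8.56 in BEC. All group means of 2 erythroid markers, 2 of 6 leukocyte markers, 1 mast cell marker and 1 fibroblast marker were dim. Leukocyte markers rose for 2 and fell for 1 of 6 in LEC (8.28 to 8.65, then 8.54 to 9.26), and rose for 1 and fell for 0 in BEC (7.08 to 7.39, then 7.03 to 7.24). Fibroblast markers rose for 1 and fell for 2 of 8 in LEC (9.87 to 10.09, then 9.93 to 10.65), and rose for 3 and fell for 1 in BEC (9.81 to 9.98, then 10.23 to 10.33).

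Between the cell types, over the 3 ages 11 of 11 macrophage, 8 of 8 mast cell and 6 of 8 keratinocyte and epithelial markers were higher in LEC, while 8 of 8 mural and 5 of 7 erythroid markers were lower. Of 6 leukocyte markers 4 were higher and 1 lower, and of 8 fibroblast markers 1 was higher and 2 lower. The part of these other cells in the histone values was not tested.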

How the data were processed

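Log2 expression values were deposited by the authors for 35556 array rows, made with RMA in oligo 1.54.1 per the submitters' processing notes. The sources used here do not say whether the 18 arrays were normalized as 1 set. RMA corrects background, normalizes between arrays and summarises probes. A row's value can include RNA of near-identical genes, and how much was not measured. The platform annotation gave 1 symbol to 21789 rows, several to 1621 and listed no entry for 12146; the brightest row per gene left 19938 genes. Group means of the 18 arrays were fitted with limma 3.58.1 in R 4.3.3 (eBayes without trend; 12 residual and 6.11 prior degrees of freedom), with 11 contrasts, two-sided tests and Benjamini-Hochberg adjustment over all genes within a contrast. The script was tested on simulated data. The number of arrays limits the precision. Members, gene lists and tests were chosen with earlier results of these data known. Values on every array were given for the brightest member of each class, the 4 largest called rises and falls per cell type, the 3 largest called LEC differences each way, and members called for the difference of the age changes; H2bc4 was added after its values were seen. From other lists at most 4 genes were named, by size of called change, with Slbp, Npat, Mcm2, Pcna and Mki67 always. Alternatives were a replicate block, other scalings, a filter on dim genes, gene means over rows, shared rows added, only the compared groups, array weights, a variance trend, no E18.5 arrays, and each array left out. The design text does not say that the replicate numbers mark litters, so the numbers were not taken to pair samples. Same-numbered LEC and BEC arrays deviated from their group means with correlations of -0.107 to 0.13. These cannot decide the pairing, because deviations from a mean of 3 arrays are tied to each other. Promoters are RefSeq's (GRCm38.p6); the platform table's Entrez identifiers matched for 21698 rows.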

Additional observations from a re-analysis of the deposited data

Results flagged for a closer look

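The age change differed between LEC and BEC for 3 histone genes by the test of the difference itself (limma, Benjamini-Hochberg over all genes). Of all genes, 8.85% were called for this difference (3.83% negative and 5.02% positive). It was negative as well for 7 of 24 genes of DNA replication and 7 of 19 of G2 and mitosis. The LEC minus BEC difference of the E18.5 minus E14.5 changes was -0.85 ± 0.14 for H4c4, -0.81 ± 0.22 for H2bc18 and -0.78 ± 0.16 for H4c6. With the replicate block, and with only the compared groups, H2bc18 was not called (adjusted p = 0.068 and 0.055), while H4c4 and H4c6 were. For each of them the 3 LEC arrays of E18.5 lay below the 3 BEC arrays. The parts of macrophage, mural and other cells in these differences were not tested.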

How the results depend on the processing

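Of 6589 values of the 22 members under the alternatives, 6356 kept their side of the threshold, 94 lost the call and 139 gained one. Of the named genes of the other lists, 3041 kept their side, 58 lost the call and 29 gained one. Reversed direction was counted only for values called in the fit reported here, with 0 in both sets. Many of these values could hardly move. Leaving out an array that a contrast does not use keeps its difference as it was. Gene means over rows do the same for the members, as each has 1 row. The counts of members called moved by over 1.5 times as follows, and the cause was not tested except that added rows raise the number of rows tested. With the 15 distinct shared rows added whose symbols all match the rule (most of the genes they name are not among the 22), calls were 25 (11 without) for LEC minus BEC over the ages, 8 (4) at E16.5, 23 (9) at E18.5, 31 (17) and 30 (16) for the changes from E14.5 to E18.5 in LEC and BEC, 28 (14) and 18 (4) to E16.5, 24 (10) and 25 (11) after it, and 7 (3) for the difference of the age changes. At E14.5 limma called 0 members, 1 with the replicate block, the dim filter, only the compared groups or no E18.5 arrays, and 3 with array weights. At E16.5, 8 were called with only the compared groups, array weights or no E18.5 arrays. At E18.5 5 were called with only the compared groups, and over the ages 7 without the E18.5 arrays. In BEC from E14.5 to E16.5 the 4 calls became 7 with the dim filter, 9 with only the compared groups, 12 with array weights, 8 with a trend and 10 without the E18.5 arrays.

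With 1 array left out, calls ranged from 10 to 13 for LEC minus BEC over the ages, 0 to 1 at E14.5, 3 to 6 at E16.5 and 7 to 10 at E18.5. They ranged from 17 to 19 and 12 to 16 for E14.5 to E18.5 in LEC and BEC, 9 to 16 and 3 to 6 to E16.5, 10 to 12 and 10 to 12 after it, and 2 to 5 for the difference of the age changes.

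The replicate block (age and replicate number as litter; consensus correlation 0.0151 where random) left 2 members called for the difference of the age changes and 11 over the ages; it also called H2bc4 over the ages (0.32, adjusted p = 0.049) and H4c8 at E14.5 (0.041), and lost H2bc18 over the ages (0.1), with no other change among the members' calls. At E14.5, LEC arrays did not all correlate best with the BEC array of their number. Dim members (H2ac8, H3c7 and H3c15 throughout) bound what the arrays can show, and within a class the share of each gene in a row's value is unknown.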
